A study of Mus musculus with 23 samples.

Results

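The genes described here are 31 genes of the interferon response and of antigen presentation, listed by name, in the hypothalamus of obese diabetic mice given celastrol or its vehicle. A gene was taken where a probe set on the array named that gene and no other, with the probe set of the highest mean used if there were several. This left 26 genes with a value, out of 18702 genes measured in the same way. Isg15, Gbp2, Igtp, H2-K1 and H2-D1 are read only by probe sets that also name a close relative or a neighbour, and they were not analysed here.

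All animals were male db/db mice, which lack a working long-form leptin receptor, and the labels give an age of 8 weeks and 2 weeks on a normal chow diet. Vehicle mice received DMSO at 25 µl per day into the abdominal cavity. Celastrol mice received celastrol, a plant triterpenoid known to lower food intake in obese mice, and their labels give DMSO at 25 µl per day as well. The celastrol dose is labelled 250 µg/kg for 6 h, and the labels used here do not state it for 1 day and 4 days. Hypothalamus was taken after 6 h, 1 day or 4 days. Each of the 6 groups has 4 arrays, other than celastrol at 6 h with 3, which makes 23 in all. There was no lean or untreated group, so the disease model is shared by every array. Arrays of 1 group are titled as biological replicates.

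Interferons are secreted proteins that warn cells of infection. Type I interferons act through a complex that holds Stat2 and Irf9 and binds the interferon-stimulated response element, and interferon gamma acts mainly through gamma-activated sites. Their target genes encode proteins that block viral RNA, tag proteins or attack vacuoles, and proteins that cut and load peptides onto class I molecules for T cells. In the brain these genes are known to be expressed at a low tonic level by several cell types, and to be strongly inducible in microglia and in cells of the vessels and meninges.

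The response element is the best known control sequence of type I interferon targets, so a few promoters that hold its core are shown first, taken from the RefSeq windows of assembly GRCm38.p6 that run from 250 bases before to 50 bases after each gene's start. Windows were at hand for 27 of the 31 genes and were lacking for Usp18, Tap2, Ifi27 and Parp14. The core of the element was searched as TTTC, then 2 bases of any kind, then TTTC, or the same on the other strand, which reads GAAA, 2 bases, GAAA. It was found in 15 of the 27 genes (55.6%), among them 12 of the 22 measured genes with a window, and in 3.99% of the 27025 genes with a window. The gamma-activated site, searched as TTCNNNGAA, was found in 8 of the 27 genes (29.6%) and in 9.55% of all genes. The other 12 genes with a window held no core match, and among these Ifit2, Irf1 and Psmb8 held a gamma-activated site match. A match is a description of letters and does not show binding.

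The 6 stretches below, picked once the matches were known, show how the core sits in effector and GTPase promoters. Each lies wholly before the gene's start and is read 5′ to 3′ on the gene's own strand, with core matches in capitals. Ifit1 and Ifit3, which encode antiviral proteins of 1 family, each hold separate copies. Rsad2 holds 1 copy, and in Bst2, Gbp3 and Irgm1 successive copies overlap and share bases. In Bst2 a gamma-activated site match overlaps the first core match as well.
Ifit1, chr19:34640769-34640828, plus strand: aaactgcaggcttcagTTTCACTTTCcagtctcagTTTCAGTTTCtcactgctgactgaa
Ifit3, chr19:34583365-34583424, plus strand: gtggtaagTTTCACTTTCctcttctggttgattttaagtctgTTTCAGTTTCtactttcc
Rsad2, chr12:26456548-26456587, minus strand: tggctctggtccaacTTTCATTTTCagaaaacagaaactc
Bst2, chr8:71537575-71537614, minus strand: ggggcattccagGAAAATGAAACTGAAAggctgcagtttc
Gbp3, chr3:142559987-142560026, plus strand: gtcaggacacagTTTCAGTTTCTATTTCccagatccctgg
Irgm1, chr11:48871423-48871462, minus strand: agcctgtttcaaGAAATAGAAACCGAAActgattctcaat

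The antigen presentation genes share position as well as function. Psmb9, Tap1, Psmb8 and Tap2 follow one another directly along the chromosome, and the windows of Tap1 and Psmb9, which lie on opposite strands, share 275 of their 300 bases. Ifit2 and Ifit3 are also direct neighbours.

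Values are log2 expression, so that a difference of 1 is a doubling. The median of an array lay between 8.57 and 8.64. Over the 13 measured of 14 hypothalamus markers the mean level of an array lay between 10.83 and 11.09. Among the highest were the neuropeptide genes Hcrt (12.58 to 13.10 over the arrays), Pmch (12.85 to 13.48) and Oxt (12.02 to 12.71). The lowest median was that of Pomc, 8.29 (7.89 to 10.84). The pituitary hormone gene Prl exceeded 9 on 4 vehicle arrays. These were replicates 2 and 4 at 6 h, replicate 1 at 1 day and replicate 2 at 4 days. Some results that rest on them are given with and without them. Other results, among them those for pathway genes beyond the listed ones, are given only with them. Over the 7 measured of 8 pituitary markers the mean level at 6 h was 7.05 to 9.34 in vehicle and 7.67 to 8.42 in celastrol. The vehicle arrays kept at 6 h lay below celastrol replicates 2 and 3 in Prl, with celastrol replicate 1 between them. Leaving out the high vehicle arrays therefore does not balance Prl between the groups at 6 h. Differences were tested with limma across all genes, with Benjamini-Hochberg adjustment over all 18702, and called at an adjusted p under 0.05. Each p-value sets a difference of group means against the spread between arrays within groups. That spread is pooled over all groups and drawn by limma towards that of all genes. The small number of arrays in a group limits the precision.

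Celastrol was compared with vehicle at each time to ask whether the interferon and antigen presentation genes of the hypothalamus respond to the compound. None of the 26 genes passed limma's test at 6 h, at 1 day or at 4 days, in the mean effect over the times, or in the test for a celastrol effect that differed between times. Over all genes, limma called 0% at 6 h, 0.0160% at 1 day, 0% at 4 days, 0% for the mean effect and 0.0588% for the effect that differed between times. Before adjustment, 1 gene had a p under 0.05 at 6 h (Bst2, where 14.8% of all genes did), 3 at 1 day (Bst2, Ifih1 and Ifit1, against 12.5% of all genes) and 1 at 4 days (Bst2, against 7.29%). These are 3.85%, 11.5% and 3.85% of the 26 genes.

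The counts before adjustment were small and moved with the arrays and the scaling, while the counts past the adjusted test stayed at 0 at 6 h and 4 days. At 6 h the count of 1 became 6 (23.1%, beside 24.0% of all genes) without the vehicle arrays high in Prl, with Ifit2, Irf1, Irgm1, Oasl2 and Usp18 joining Bst2. It was 6 with quantile normalization (beside 11.1% of all genes) and 5 against all vehicle arrays (beside 12.4%). Leaving out 1 array gave 5 at 6 h without vehicle replicate 2 (beside 16.9% of all genes) and 4 without vehicle replicate 1 (beside 13.1%). It gave 3 without celastrol replicate 3 (beside 18.9%), and 1 or 2 without any of the others (beside 8.70% to 18.0%). At 1 day the count of 3 became 5 without celastrol replicate 1 (beside 10.5% of all genes) and 2 without celastrol replicate 2 (beside 9.78%). It became 1 without vehicle replicate 4 (beside 8.72%), and was 3 or 4 without any of the others (beside 9.57% to 14.3%). With only the groups compared it was 5 (19.2%, beside 18.8% of all genes). It was 4 with quantile normalization (beside 8.88% of all genes) or against all vehicle arrays (beside 6.15%). At 4 days the count of 1 became 0 without the arrays high in Prl, of which that time has vehicle replicate 2 (beside 6.33% of all genes). It was also 0 without celastrol replicate 2 (beside 6.27%). The count became 2 without vehicle replicate 1 (beside 7.37%), celastrol replicate 3 (beside 7.96%) or celastrol replicate 4 (beside 9.54%). Against all vehicle arrays it was 3 (11.5%, beside 11.7% of all genes).

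Each 95% confidence interval covers the difference of 1 gene at 1 time, and the intervals are not joint over the 26 genes. They take no account of the compression of dim probe sets by the array processing (RMA). Oas1a, named below, was at the 28.1 percentile of all genes by mean level. At 6 h the lowest bound was that of Ifitm3 (0.684-fold) and the highest that of Oas1a (1.407-fold). At 1 day the bounds ran from 0.742-fold for Ifit1 to 1.282-fold for Bst2. At 4 days they ran from 0.772-fold for Oas1a to 1.256-fold for Ifit2. Among the 26 genes, 16 lay above vehicle at 6 h, 13 at 1 day and 14 at 4 days, and of all genes 52.8%, 54.1% and 49.7% did. The median difference of the 26 was 0.07 on the log2 scale at 6 h, −0.0040 at 1 day and 0.0090 at 4 days, beside 0.0072, 0.0086 and −0.00053 over all genes. In the mean effect 15 of the 26 genes lay above 0, as did 53.3% of all genes, and 4 (15.4%) had a p under 0.05 before adjustment (Ifih1, Irf1, Eif2ak2 and Psmb9), as did 13.5% of all genes. For the effect that differed between times that count was 3 (Bst2, Ifit2 and Tap2, 11.5%), beside 13.0% of all genes. With all vehicle arrays as control, 16, 9 and 21 genes were above vehicle at the 3 times, where 46.8%, 48.8% and 58.7% of all genes were. With quantile normalization 13, 10 and 16 were, beside 51.8%, 50.4% and 50.9% of all genes. The 6 h median came to 0.0045 when the arrays were quantile normalized once more, and to 0.014 without vehicle replicate 1.

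**Figure D1:**
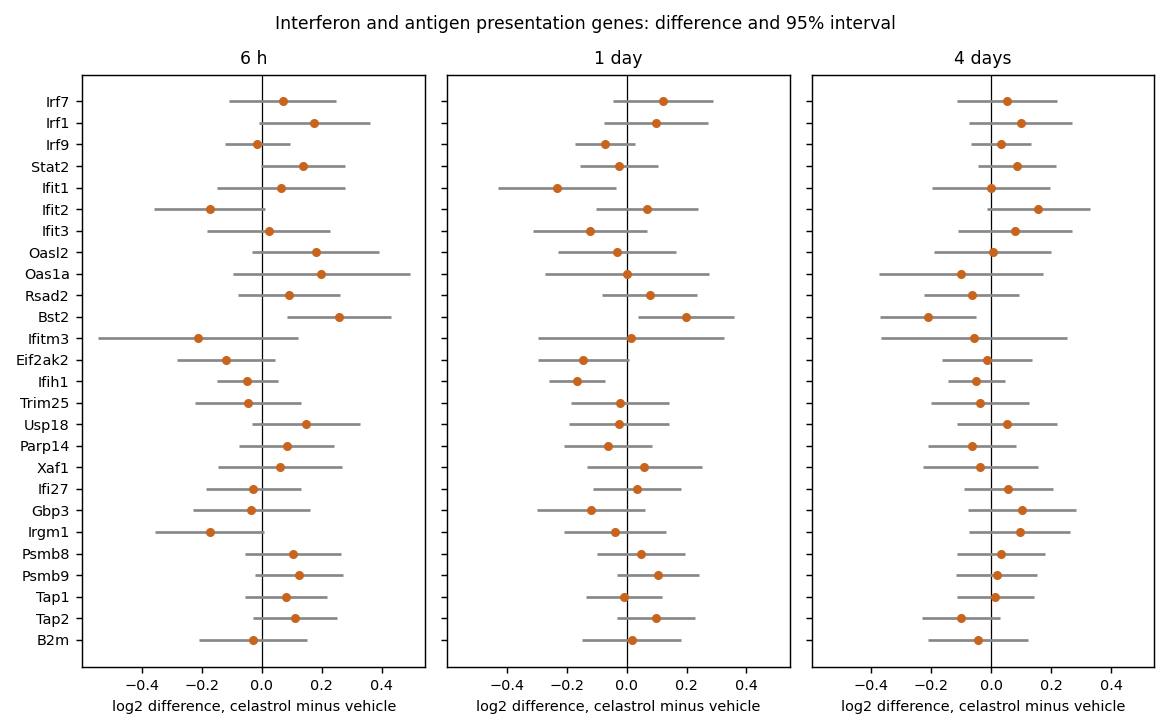
Log2 difference of celastrol from vehicle (horizontal axis) for each of the 26 genes (rows, ordered by role) at 6 h, 1 day and 4 days. Points are limma estimates and bars their 95% confidence intervals, and the intervals of Bst2 lie off 0 at all 3 times, above it at 6 h and 1 day and below it at 4 days, with none of the 26 genes past 0.05 after adjustment.

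The transcription factors of the response were Irf7, the amplifier of the type I loop, Irf1, which also serves interferon gamma, and Irf9 and Stat2, parts of the complex that binds the response element. Irf7 at 6 h read 7.35, 7.45, 7.60 and 7.40 in vehicle and 7.66, 7.51 and 7.38 in celastrol. Irf7 at 1 day read 7.43, 7.38, 7.10 and 7.30 in vehicle and 7.38, 7.49, 7.36 and 7.46 in celastrol. Irf7 at 4 days read 7.63, 7.31, 7.53 and 7.36 in vehicle and 7.49, 7.40, 7.50 and 7.65 in celastrol. The groups overlapped at every time, with vehicle replicate 3 at 1 day the lowest of all 23 arrays. The celastrol difference was 0.07 ± 0.087 (SE) at 6 h, 0.12 ± 0.080 at 1 day and 0.05 ± 0.080 at 4 days, with limma adjusted p of 0.718, 0.555 and 0.950.

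Stat2 was the factor gene with the smallest p at 6 h. Stat2 at 6 h read 8.80, 8.72, 8.46 and 8.61 in vehicle and 8.72, 8.82 and 8.81 in celastrol. Stat2 at 1 day read 8.69, 8.71, 8.71 and 8.80 in vehicle and 8.66, 8.80, 8.62 and 8.74 in celastrol. Stat2 at 4 days read 8.82, 8.69, 8.81 and 8.85 in vehicle and 8.86, 8.81, 8.99 and 8.86 in celastrol. The 6 h difference, 0.14 ± 0.067 (SE; adjusted p = 0.352), came with a wide vehicle group in which replicate 1 reached the level of the celastrol arrays, and the groups overlapped at the later times too. Irf1 was 0.18, 0.10 and 0.10 above vehicle at the 3 times, none past the test, and its mean effect of 0.12 ± 0.0495 had an adjusted p of 0.296. The celastrol difference of Irf9 was −0.02, −0.07 and 0.03 at the 3 times.

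**Figure D2:**
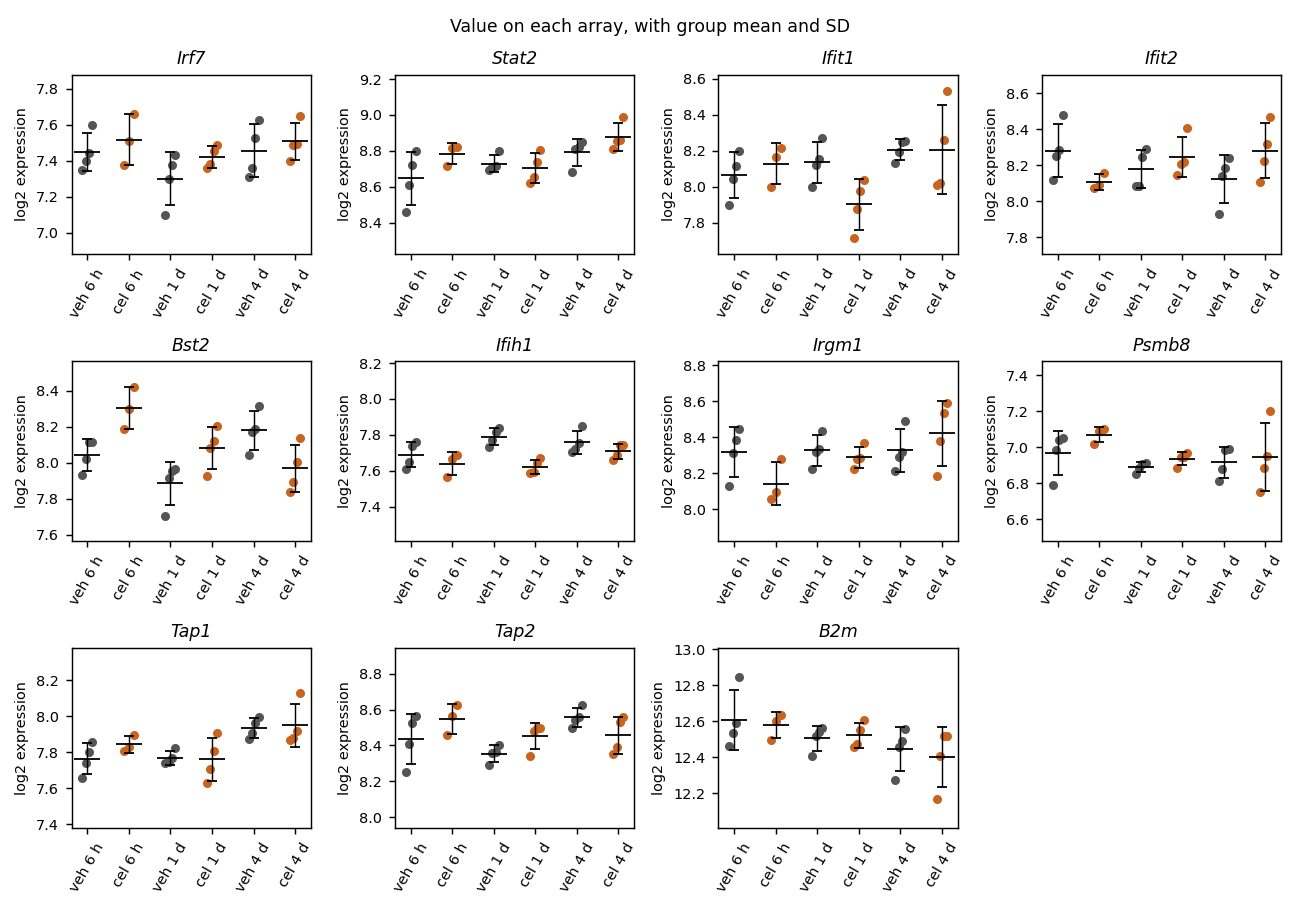
Log2 expression (vertical axis, with its own range for each gene) of 11 genes on every array, by group (veh, vehicle; cel, celastrol; 6 h, 1 d and 4 d). Points are arrays, horizontal lines group means and bars ± 1 SD, and groups overlap in most panels, with Bst2 at 6 h (vehicle up to 8.12, celastrol from 8.19) among the exceptions.

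The antiviral effectors include Bst2, or tetherin, a membrane protein that holds budding virus particles on the cell. Bst2 at 6 h read 7.93, 8.12, 8.02 and 8.12 in vehicle and 8.42, 8.30 and 8.19 in celastrol. Bst2 at 1 day read 7.91, 7.96, 7.96 and 7.71 in vehicle and 7.92, 8.20, 8.08 and 8.12 in celastrol. Bst2 at 4 days read 8.04, 8.31, 8.19 and 8.17 in vehicle and 7.89, 7.84, 8.01 and 8.14 in celastrol. At 6 h every celastrol array lay above every vehicle array, while at 1 day and 4 days the groups overlapped and the order of their means turned from celastrol higher to celastrol lower.

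In limma's fit the celastrol difference of Bst2 was 0.26 ± 0.083 (SE) at 6 h (adjusted p = 0.201), 0.20 ± 0.077 at 1 day (adjusted p = 0.302) and −0.21 ± 0.077 at 4 days (adjusted p = 0.495). The test for a celastrol effect that differed between times gave an adjusted p of 0.105, which did not pass. It passed without celastrol replicate 4 at 4 days (adjusted p = 0.0428, in a fit that called 0.631% of all genes). Set against all vehicle arrays in place of those of the same time, the difference was 0.27 at 6 h, 0.05 at 1 day and −0.07 at 4 days. Among the vehicle groups the mean of Bst2 was lowest at 1 day (7.88) and highest at 4 days (8.18). Without the vehicle arrays high in Prl the difference was 0.33 at 6 h (adjusted p = 0.0845), 0.21 at 1 day (adjusted p = 0.308) and −0.17 at 4 days (adjusted p = 0.820), and the last no longer had a p under 0.05 before adjustment. Blood leukocyte markers, of which 12 of 15 were measured, had a mean level of 6.52 to 6.58 in vehicle and 6.66 to 6.77 in celastrol at 6 h. These levels are low, as Psmb8, with a mean of 6.95 over all arrays, was at the 22.6 percentile of all genes. The part of the markers in the Bst2 values was not tested. In tissue RNA, a change in the number of cells of a type and a change in RNA per cell cannot be told apart.

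Ifit1, which binds viral RNA whose cap lacks the marks of host RNA, had the lowest bound at 1 day. Ifit1 at 6 h read 7.90, 8.11, 8.20 and 8.04 in vehicle and 8.22, 8.17 and 8.00 in celastrol. Ifit1 at 1 day read 8.15, 8.00, 8.12 and 8.27 in vehicle and 7.88, 7.71, 8.04 and 7.98 in celastrol. Ifit1 at 4 days read 8.20, 8.13, 8.25 and 8.25 in vehicle and 8.26, 8.01, 8.53 and 8.02 in celastrol. At 1 day the celastrol arrays were mostly below the vehicle arrays with a slight overlap, a difference of −0.23 ± 0.095 (SE; limma adjusted p = 0.329), and at 4 days celastrol replicate 3 stood well above the rest of its group.

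Ifit2, its relative in the same gene cluster, had a difference of the opposite sign at 6 h. Ifit2 at 6 h read 8.28, 8.25, 8.48 and 8.12 in vehicle and 8.07, 8.09 and 8.16 in celastrol. Ifit2 at 1 day read 8.09, 8.24, 8.09 and 8.29 in vehicle and 8.15, 8.21, 8.40 and 8.22 in celastrol. Ifit2 at 4 days read 8.24, 7.93, 8.14 and 8.18 in vehicle and 8.47, 8.23, 8.11 and 8.32 in celastrol. The differences, −0.17 ± 0.090 (SE) at 6 h, 0.07 ± 0.083 at 1 day and 0.16 ± 0.083 at 4 days, had limma adjusted p of 0.365, 0.781 and 0.723, and the groups overlapped at each time.

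Of all 9 effector genes, 6 were above vehicle at 6 h, 5 at 1 day and 3 at 4 days, with medians of 0.06, 0.00077 and −0.015. Oasl2, an oligoadenylate synthetase-like protein, was the other gene whose groups did not overlap at 6 h, at 8.62 ± 0.187 in vehicle (SD, n = 4) and 8.79 ± 0.0079 in celastrol (SD, n = 3), with a limma adjusted p of 0.406. Groups were apart in this way for 2 of the 26 genes at 6 h, 1 at 1 day (Ifih1) and 0 at 4 days, where 10.3%, 11.0% and 3.50% of all genes had groups apart. Oas1a, which makes the activator of RNase L, and Ifitm3, which blocks viral entry, varied most within groups, with SDs of 0.209 and 0.237. Ifit3, Rsad2 (viperin) and the RNA-activated kinase gene Eif2ak2 had no p under 0.05 at any single time. Eif2ak2 had one in the mean effect over the times (difference −0.09, limma adjusted p = 0.356).

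Among the sensors and modifiers, Ifih1 encodes MDA5, a cytosolic sensor of long double-stranded RNA. Ifih1 at 6 h read 7.76, 7.74, 7.61 and 7.65 in vehicle and 7.57, 7.69 and 7.66 in celastrol. Ifih1 at 1 day read 7.73, 7.82, 7.77 and 7.84 in vehicle and 7.67, 7.59, 7.64 and 7.59 in celastrol. Ifih1 at 4 days read 7.85, 7.76, 7.71 and 7.72 in vehicle and 7.75, 7.74, 7.69 and 7.66 in celastrol. At 1 day every celastrol array lay below every vehicle array, and at 6 h and 4 days the groups overlapped.

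The 1 day difference of Ifih1 was −0.17 ± 0.046 (SE) and did not pass limma's test over all genes (adjusted p = 0.191). It passed in a fit with array weights (adjusted p = 0.0300), which called 2.17% of all genes, and had an adjusted p of 0.532 against all vehicle arrays. Ifih1 also had the smallest within-group spread of the 26 genes, an SD of 0.0553 against a median of 0.120 for the 26 genes and 0.0942 over all genes. Its mean effect over the times was −0.09 ± 0.027 (limma adjusted p = 0.207). The ubiquitin ligase Trim25, the ISG15 protease Usp18, the ADP-ribosyltransferase Parp14, Xaf1 and Ifi27 had no p under 0.05 against vehicle at any time.

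Of the interferon gamma GTPases, which act on membranes around intracellular microbes, Irgm1 and Gbp3 were measured. Irgm1 at 6 h read 8.38, 8.13, 8.45 and 8.31 in vehicle and 8.05, 8.09 and 8.28 in celastrol. Irgm1 at 1 day read 8.22, 8.43, 8.32 and 8.34 in vehicle and 8.22, 8.28, 8.37 and 8.28 in celastrol. Irgm1 at 4 days read 8.32, 8.29, 8.21 and 8.49 in vehicle and 8.54, 8.38, 8.59 and 8.18 in celastrol. Celastrol was the lower group at 6 h (−0.18 ± 0.088, SE; limma adjusted p = 0.356) and the higher at 4 days (0.09 ± 0.082, adjusted p = 0.879), each with overlap. The difference of Gbp3 from vehicle was −0.04 at 6 h, −0.12 at 1 day and 0.10 at 4 days, none past the test.

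Antigen presentation was read from the immunoproteasome peptidases Psmb8 and Psmb9, the peptide transporter subunits Tap1 and Tap2, and B2m, the light chain of class I molecules. Psmb8 at 6 h read 6.79, 6.99, 7.04 and 7.05 in vehicle and 7.10, 7.09 and 7.02 in celastrol. Psmb8 at 1 day read 6.91, 6.88, 6.85 and 6.91 in vehicle and 6.88, 6.95, 6.95 and 6.97 in celastrol. Psmb8 at 4 days read 6.88, 6.98, 6.99 and 6.81 in vehicle and 6.75, 6.89, 6.95 and 7.20 in celastrol. The groups overlapped at each time, and vehicle replicate 1 at 6 h lay below the other arrays of its group.

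Tap1, beside Psmb8, gave a similar picture for the compound. Tap1 at 6 h read 7.66, 7.86, 7.74 and 7.80 in vehicle and 7.83, 7.90 and 7.81 in celastrol. Tap1 at 1 day read 7.83, 7.77, 7.74 and 7.74 in vehicle and 7.71, 7.63, 7.80 and 7.91 in celastrol. Tap1 at 4 days read 7.88, 7.91, 8.00 and 7.96 in vehicle and 7.87, 7.92, 8.13 and 7.88 in celastrol. Celastrol and vehicle overlapped at each time, and both groups were higher at 4 days than at 1 day by their means.

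Tap2 completes the transporter. Tap2 at 6 h read 8.56, 8.25, 8.53 and 8.41 in vehicle and 8.56, 8.62 and 8.46 in celastrol. Tap2 at 1 day read 8.36, 8.29, 8.37 and 8.40 in vehicle and 8.48, 8.34, 8.50 and 8.50 in celastrol. Tap2 at 4 days read 8.50, 8.54, 8.63 and 8.56 in vehicle and 8.39, 8.35, 8.53 and 8.56 in celastrol. Its celastrol difference was 0.11 ± 0.068 (SE) at 6 h, 0.10 ± 0.063 at 1 day and −0.10 ± 0.063 at 4 days, with overlap at each time and limma adjusted p of 0.436, 0.543 and 0.794.

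B2m pairs with every class I heavy chain. B2m at 6 h read 12.46, 12.54, 12.85 and 12.59 in vehicle and 12.63, 12.50 and 12.60 in celastrol. B2m at 1 day read 12.54, 12.56, 12.41 and 12.52 in vehicle and 12.47, 12.46, 12.61 and 12.55 in celastrol. B2m at 4 days read 12.56, 12.46, 12.49 and 12.28 in vehicle and 12.52, 12.40, 12.52 and 12.17 in celastrol. The celastrol groups lay inside or across the vehicle range at every time, and the 95% intervals of the difference ran from −0.21 to 0.15 at 6 h, −0.15 to 0.18 at 1 day and −0.21 to 0.12 at 4 days. Of the 5 genes of this role, 4 were above vehicle at 6 h, 4 at 1 day and 3 at 4 days. Psmb9 lay 0.12, 0.10 and 0.02 above vehicle, and its mean effect over the times was 0.08 ± 0.039 (limma adjusted p = 0.364).

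The vehicle groups, which serve as controls, were then compared between times, and here 2 of the 26 genes passed. From 1 day to 4 days of DMSO, Bst2 rose by 0.29 ± 0.077 (SE), or 1.227-fold, with a limma adjusted p of 0.0184, and Tap2 rose by 0.20 ± 0.063, or 1.150-fold, with an adjusted p of 0.0398. All 4 vehicle arrays at 4 days lay above all 4 at 1 day for both genes. The 2 genes are 7.69% of the 26, and limma called 11.8% of all genes in the same comparison. Before adjustment 7 of the 26 (26.9%) had a p under 0.05 there, and 29.1% of all genes did. In the test over all 3 vehicle times Bst2 alone passed (adjusted p = 0.0457), or 3.85% of the 26 genes against 8.83% of all genes, and 6 (23.1%) had a p under 0.05 before adjustment against 28.5%. This call was lost with the replicate block (adjusted p = 0.0534), with arrays centred on their medians (0.0779), with quantile normalization (0.180), without the arrays high in Prl (0.129) and in 12 of the 23 fits that left out 1 array.

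The genes in the same row along the chromosome as Tap2 were not tested against one another. Psmb8, next to Tap2, was 0.03 ± 0.071 (SE) higher at 4 days (adjusted p = 0.824), with overlapping groups. Psmb9 (0.18 ± 0.066, SE; adjusted p = 0.0685) and Tap1 (0.17 ± 0.061; adjusted p = 0.0789) did not pass limma's test, though their vehicle arrays at 4 days also lay above all those at 1 day. Xaf1 was the last of the 5 genes, of 26, with vehicle groups apart in this comparison, where 20.9% of all genes had groups apart. Of the 26 genes, 19 were higher at 4 days than at 1 day, with a median of 0.07, and 60.7% of all genes were, with a median of 0.03. Gbp3 had the lowest difference of the 26, −0.20, which did not pass.

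The step from 6 h to 1 day of vehicle showed less. Limma called 0 of the 26 genes and 0% of all genes, and 2 of the 26 (Bst2 and Ifih1, 7.69%) had a p under 0.05 before adjustment, beside 10.7% of all genes. At 1 day 13 of the 26 genes were above their level at 6 h, beside 45.9% of all genes, and Psmb9 was the only one of the 26 with groups apart, as 5.80% of all genes were. Between 6 h and 4 days 0 of the 26 genes passed, beside 3.91% of all genes, and 3 (Irf1, Stat2 and Tap1, 11.5%) had a p under 0.05 before adjustment, beside 23.9%. At 4 days 21 of the 26 were above their level at 6 h, beside 62.1% of all genes, and 3 (Oasl2, Psmb9 and Tap1) had groups apart, beside 11.5% of all genes.

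The 2 calls of the step from 1 day to 4 days were lost in some fits while the differences kept much of their size. Bst2 lost its call in the comparison of 4 days with 1 day without vehicle replicate 4 at 1 day (adjusted p = 0.0758) or without vehicle replicate 2 at 4 days (adjusted p = 0.0642), and Tap2 lost its call without any one of the vehicle arrays at 1 day or without replicate 2, 3 or 4 at 4 days. In those fits the difference was 0.23 and 0.25 for Bst2 and between 0.18 and 0.22 for Tap2. Quantile normalization ended both calls, with differences of 0.21 for Bst2 (adjusted p = 0.106) and 0.16 for Tap2 (adjusted p = 0.151), and centring ended that of Tap2 (adjusted p = 0.0795). Without the 4 vehicle arrays high in Prl, 0 of the 26 genes passed, with differences of 0.26 for Bst2 (adjusted p = 0.0846) and 0.21 for Tap2 (adjusted p = 0.0631). Other tissue markers moved with the same groups. Over all 10 meningeal fibroblast markers the mean level was 8.29 to 8.62 in vehicle at 1 day and 8.49 to 9.29 at 4 days. Over the 12 measured blood leukocyte markers it was 6.48 to 6.53 and 6.64 to 6.71. Choroid plexus markers ran from 7.63 to 7.96 and from 7.81 to 8.18, and pituitary markers from 6.99 to 8.55 and from 7.37 to 9.08. Their part in the rise of Bst2 and Tap2 was not tested. Microglia markers, 11 of 12 measured, ran from 8.92 to 8.99 and from 8.91 to 9.02.

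**Figure D3:**
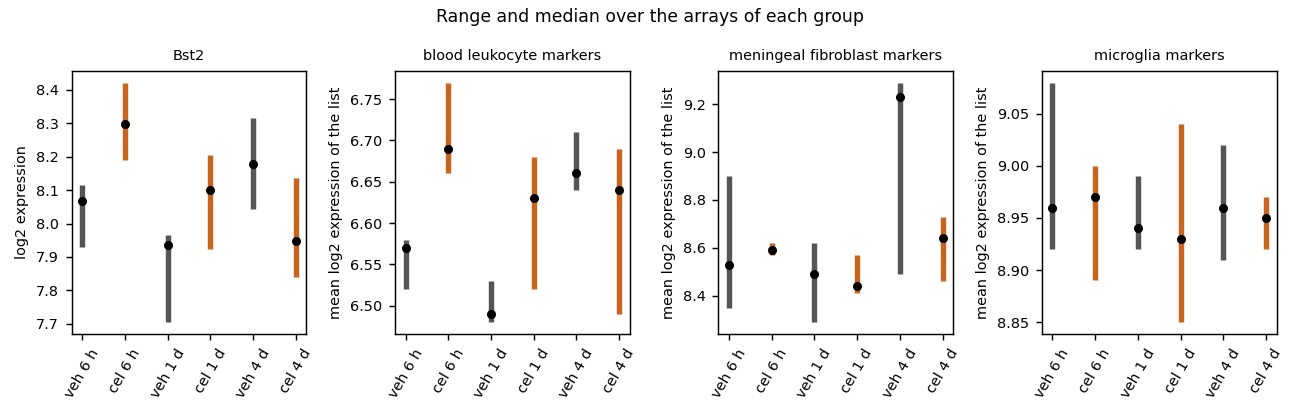
Log2 expression of Bst2 and mean log2 expression of the blood leukocyte, meningeal fibroblast and microglia marker lists (vertical axes, each with its own range) in the 6 groups. Vertical lines run from the lowest to the highest array of a group and points mark the median, and the leukocyte and Bst2 ranges at 6 h lie higher in celastrol than in vehicle without overlap.

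In celastrol mice 0 of the 26 genes passed the test for differences between times, where limma called 0.246% of all genes. Before adjustment 7 of the 26 (26.9%) had a p under 0.05, namely Bst2, Eif2ak2, Ifit1, Irgm1, Parp14, Stat2 and Tap1, and 16.4% of all genes did. Bst2 ran from 8.30 ± 0.117 (SD, n = 3) at 6 h through 8.08 ± 0.117 to 7.97 ± 0.132 (SD, n = 4 each) at 4 days. Eif2ak2, Ifit1, Irgm1, Stat2 and Tap1 had their highest celastrol mean at 4 days, and Bst2 and Parp14 at 6 h.

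On some single arrays many of the 26 genes were lowest or highest of their group. The arrays named here are examples with high shares, and correlations between the genes were not computed. Other arrays were near the share of all genes, such as vehicle replicate 4 at 4 days (lowest for 23.1%, against 21.5%). Vehicle replicate 1 at 6 h was the lowest array of its group for 13 of the 26 genes (50.0%, against 21.6% of all genes), and vehicle replicate 3 at 1 day for 13 (50.0%, against 19.6%). Celastrol replicate 3 at 4 days was the highest of its group for 11 (42.3%, against 18.3%), among them Ifit1, Ifit3, Stat2 and Tap1. The median deviation of the 26 genes from their own means was −0.09 on vehicle replicate 1 at 6 h and on vehicle replicate 3 at 1 day. On celastrol replicate 3 at 4 days it was 0.08. Over all genes it was −0.009, −0.003 and 0.005 on these arrays.

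**Figure D4:**
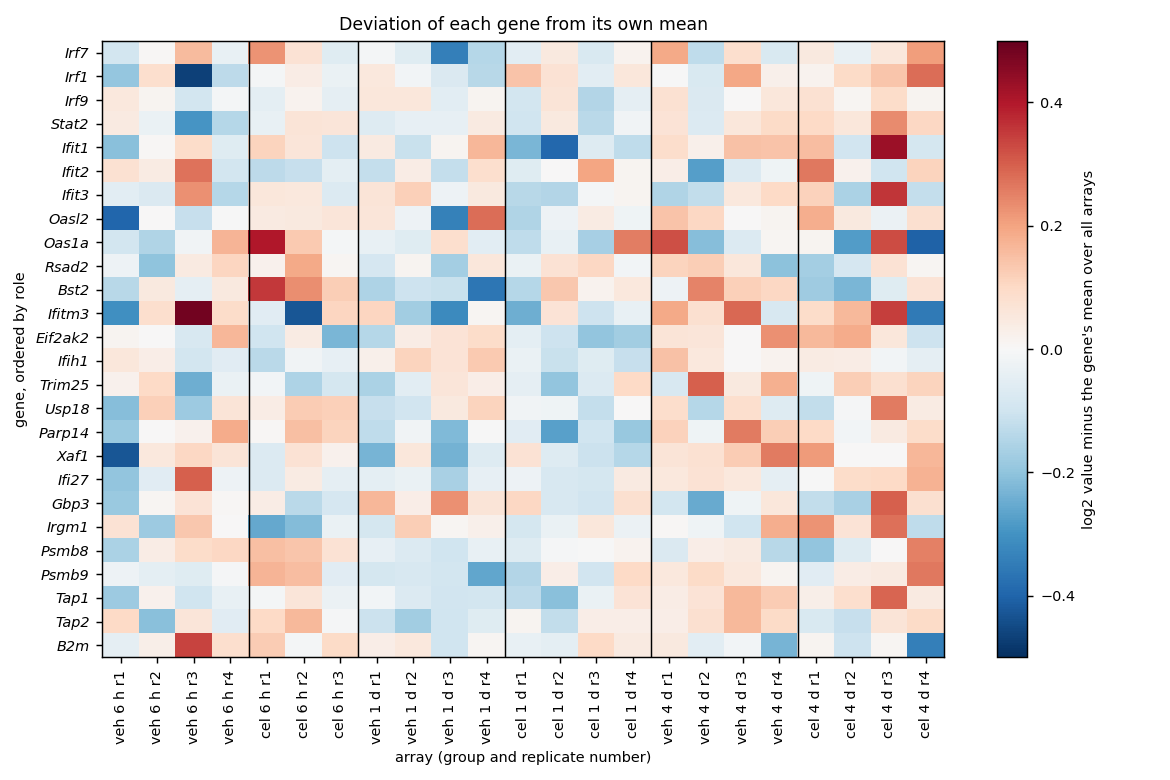
Deviation of each of the 26 genes (rows, by role) from its own mean over the 23 arrays (columns, by group and replicate number, r), in log2 units on a scale from −0.5 to 0.5. Several single arrays stand out, such as vehicle replicate 1 at 6 h, lowest of its group for 13 genes, and celastrol replicate 3 at 4 days, highest of its group for 11.

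Beyond the 26 genes, 82 of 95 other genes of the interferon and antigen presentation pathways were measured, from ligands and receptors to class II molecules. None passed limma's test against vehicle at 6 h, 1 day or 4 days, and 11 (13.4%), 14 (17.1%) and 6 (7.32%) had a p under 0.05 before adjustment, beside the 14.8%, 12.5% and 7.29% of all genes. The smallest p at 6 h were those of the oligoadenylate synthetase family genes Oasl1 (0.30, adjusted p = 0.194) and Oas3 (0.22, adjusted p = 0.226) and of the cytokine signalling inhibitor Socs1 (0.22, adjusted p = 0.199). At 1 day they were those of Oas1b (0.27, adjusted p = 0.167), the nuclear body protein gene Sp100 (−0.25, adjusted p = 0.254) and Ifng, interferon gamma itself (0.22, adjusted p = 0.275). At 4 days they were those of the class II genes H2-Aa (−0.35, adjusted p = 0.370) and Cd74 (−0.34, adjusted p = 0.560) and of Pdia3, a chaperone of class I loading (0.15, adjusted p = 0.495).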

How the data were processed

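Per the submitters' processing notes, RMA was the method by which the authors made the deposited log2 values, 1 for each probe set of an Affymetrix whole-transcript array. Neither the program behind it nor the set of arrays normalized together is stated in those notes. RMA tends to compress the differences of dim probe sets. Total RNA was labelled with a whole-transcript kit, per the labels' protocols. The values were used as deposited.

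Probe sets were named through the array's annotation table, with symbols updated by gene identifier or accession. The table has 23492 probe sets. A single gene is named by 20228 of them, several genes by 1399 and no gene by 1865. Genes were read from probe sets naming 1 gene, by the highest mean of several, with no filter on level. The files hold no other sample's columns.

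All 23 arrays entered 1 fit of 6 group means in limma 3.58.1 under R 4.3.3 (17 residual and 5.424 prior degrees of freedom), with moderated tests and Benjamini-Hochberg adjustment over 18702 genes. The procedure was tested on simulated data. Confidence intervals are at 95%. Genes given on every array are those called in a comparison, the 3 of smallest p in each celastrol comparison and in the vehicle test over times, and Irf7, Psmb8 and B2m. Of other pathway genes, the 3 of smallest p are named where none passed. The 31 genes, the pathway and marker lists and the rules were chosen with earlier results of these data known, so they are described by counts beside all genes and get no test as a list.

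Alternatives were a robust variance trend, leaving out the lowest tercile of genes, quantile normalization, centring on array medians, the replicate number as a block, array weights, the mean of a gene's probe sets, all vehicle arrays as control, only the groups compared, and each array left out. A fit that drops the 4 vehicle arrays high in Prl was added after seeing the data.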

Additional observations from a re-analysis of the deposited data

Results flagged for a closer look

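Within groups of 4 arrays, 5 of 130 combinations of gene and group (3.85%) held an array whose gap to the nearest other array was above Dixon's critical value, and chance flags about 1 in 20. Xaf1 on vehicle replicate 1 at 6 h was 7.277, with the other 3 arrays between 7.757 and 7.808. Oas1a on vehicle replicate 3 at 1 day was 7.382, with the others between 7.239 and 7.261. Ifi27 on the same array was 9.245, with the others between 9.359 and 9.374. Psmb9 on vehicle replicate 4 at 1 day was 8.250, with the others between 8.416 and 8.427. Tap2 on celastrol replicate 2 at 1 day was 8.341, with the others between 8.478 and 8.496.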

How the results depend on the processing

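Over 33 settings, 8172 results of single genes were recomputed, of which 8123 kept their side of the threshold, 30 lost a call and 19 gained one, and none with a call reversed. Of 5775 signed differences, 199 took the other sign, none of them with a p under 0.125 in the fit as reported. Leaving out an array of a group not compared cannot change a difference, nor can the robust variance trend or leaving out the lowest tercile. The 5775 therefore hold many differences that could not take the other sign, and in such fits only the p-values moved. Against vehicle, the count of genes past the test was 0 at 6 h and 4 days in every setting. At 1 day it was 1 (Ifih1) with array weights and 0 otherwise. The test for a celastrol effect that differed between times gave 0 to 1 genes when each array was left out. For vehicle 4 days minus 1 day the count of 2 became 1 with quantile normalization (Gbp3, which was lower), 1 with arrays centred on their medians (Bst2), 5 with array weights, 0 without the 4 vehicle arrays high in Prl, and 0 to 4 when each array was left out. For vehicle 4 days minus 6 h the count of 0 became 1 (Irf1) with the mean of a gene's probe sets, 1 (Irf1) without the arrays high in Prl, and 0 to 1 when each array was left out. The vehicle test over all times, which called Bst2, gave 0 genes with centred arrays, 2 with array weights, 1 other gene with quantile normalization (Gbp3, adjusted p = 0.0462) and without the arrays high in Prl (Irf1, adjusted p = 0.0279), and 0 to 2 when each array was left out. Bst2 lost that call in 12 of the 23 such fits, with an adjusted p of up to 0.138: without vehicle replicate 3 at 6 h, any vehicle array at 1 day, vehicle replicate 2, 3 or 4 at 4 days, celastrol replicate 2 at 6 h, 3 or 4 at 1 day, or 3 at 4 days. The median celastrol difference at 6 h was 0.00453 with quantile normalization and 0.0141 to 0.0852 when each array was left out, and at 4 days it was 0.0526 with all vehicle arrays as control. Causes were not tested. Arrays of the same replicate number did not deviate together (correlations of −0.08 to 0.19 over 11 pairs, 2 of them over 0.1). With the replicate block, the vehicle test over all times called 0 genes (Bst2, adjusted p = 0.0534), vehicle 4 days minus 1 day still called 2, and celastrol against vehicle called 0 at each time.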

Other observations

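Among the 82 other interferon and antigen presentation genes, vehicle mice at 4 days differed from vehicle mice at 1 day in 14 (17.1%, beside 11.8% of all genes), 11 higher and 3 lower. These genes were chosen after their values were seen. Results without the vehicle arrays high in Prl are not given for them. Of 7 measured genes of class II presentation, 3 rose, 0 fell and 4 did not pass, with values from −0.02 for Ctss to 0.14 for Ciita among the latter. Those that rose were Cd74, the invariant chain, higher by 0.44 ± 0.130 (SE; limma adjusted p = 0.0306), H2-Aa by 0.42 ± 0.107 (adjusted p = 0.0158) and H2-Eb1 by 0.31 ± 0.084 (adjusted p = 0.0221). The oligoadenylate synthetase family genes Oas3 (0.34, adjusted p = 0.00607), Oasl1 (0.33, adjusted p = 0.0198), Oas2 (0.29, adjusted p = 0.0497) and Oas1b (0.26, adjusted p = 0.0217) rose as well. Oas1a (0.03, limma adjusted p = 0.898) and Oasl2 (0.07, adjusted p = 0.652), family genes described above, did not pass. The confidence interval of this difference ran from −0.24 to 0.31 for Oas1a and from −0.12 to 0.27 for Oasl2. Both intervals include the rise of Oas1b. Whether the rise was shared by the whole family was not tested. Ifitm1 (0.34), Irf8 (0.21) and the interferon genes Ifna2 (0.47) and Ifnk (0.26) also rose. The genes that fell were Ifit3b (−0.52, adjusted p = 0.0145), the class I chaperone Pdia3 (−0.27, adjusted p = 0.00475) and Pias1 (−0.23, adjusted p = 0.00328). Close copies of a gene in the Oas, Ifit and class II families can share probes. In vehicle mice the median level of the blood leukocyte and meningeal markers was higher at 4 days than at 1 day. So was that of the choroid plexus (7.99 against 7.79) and pituitary markers (7.94 against 7.30). Of these lists only the leukocyte markers had ranges that did not overlap, and the other marker lists differed less. The part of these lists in the differences was not tested.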
